A study of Mus musculus with 21 samples.

Results

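The cytosolic ribosomal proteins are the protein parts of the 60S and 40S ribosomal subunits in the cytoplasm. Their genes were taken by name (Rpl or Rps followed by a number and at most an a or x, and Rplp0, Rplp1, Rplp2 and Rpsa), which gave 76 of the 33829 genes listed for the pre-treatment experiment and the same 76 of the 55385 genes listed for the delayed experiment. Of these, 46 belong to the large and 30 to the small subunit, all 76 carry the KEGG term Ribosome in the deposited tables, and 75 carry the GO term for structural constituents of the ribosome. The name rule leaves out genes such as Fau and Rack1, which also encode parts of the cytosolic ribosome, and the genes of the mitochondrial ribosome.

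RNA-seq was done on midbrain (nigral tissue in the methods) of 21 male C57BL/6 mice, given as 6 weeks old in the labels, in 7 groups of 3. In the pre-treatment experiment, control mice received ddH2O for 10 days, MPTP mice received MPTP at 30 mg/kg per day for 5 days with ddH2O on the other 5 days, and the remaining mice received irisin at 200 μg/kg per day for 5 days before the same MPTP course. In the delayed experiment, the groups were control (ddH2O for 10 days), irisin alone and MPTP alone (each for 5 days, with ddH2O on the other 5 days), and MPTP followed by irisin, at the same doses. MPTP is a neurotoxin that damages dopaminergic neurons, and the mice carry no transgene, and irisin is a fragment of FNDC5 that circulates in blood.

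The ribosomal proteins are made in matched amounts and assembled with rRNA in the nucleolus, and their RNAs are among the most abundant in a cell. Most of them start with a C and a run of pyrimidines, the 5′ terminal oligopyrimidine (TOP) motif, through which mTORC1 and the RNA-binding protein LARP1 control their translation. Much of this control acts on translation and is not seen in RNA-seq counts. Mammalian genomes also hold many processed pseudogenes of these genes, which are intronless copies of their mRNAs.

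Pyrimidine runs near annotated starts, where a TOP motif is looked for, are shown first, for members named in the results. Whether the RNAs begin at these runs was not tested. RefSeq promoter windows (build GRCm38.p6, 250 bases before to 50 after an annotated start) were found for 56 of the 76 members, with 66 starts. A C followed by at least 4 bases that are C or T, on the strand of the gene and beginning within 5 bases of the start, was present at 29 of the 66 starts (43.9%), against 18.4% of all 32851 starts. The same run beginning exactly at the annotated start was present at 13 starts (19.7%), against 2.51% of all starts. The GC box GGGCGG, on either strand of the 300 bases, was present in 60.6% of the members' windows and 35.7% of all windows, and TATAAA, on either strand, in 9.09% and 13.6%. The following stretches hold 15 bases before the annotated start and 15 bases from it, with the run in capitals, for 5 members in which it was found and 3 in which these letters were not found at the annotated start.
Rps10, chr17:27635230-27635259, minus strand: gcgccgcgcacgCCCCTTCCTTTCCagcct
Rplp2, chr7:141447636-141447665, plus strand: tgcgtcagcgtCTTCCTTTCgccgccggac
Rps6, chr4:86857353-86857382, minus strand: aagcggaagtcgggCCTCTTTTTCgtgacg
Rps27, chr3:90213634-90213663, minus strand: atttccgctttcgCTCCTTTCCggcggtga
Rpl35a, chr16:33056467-33056496, plus strand: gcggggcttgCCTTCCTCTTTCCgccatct
Rplp0, chr5:115559452-115559481, plus strand: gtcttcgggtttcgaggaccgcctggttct
Rps3, chr7:99483695-99483724, minus strand: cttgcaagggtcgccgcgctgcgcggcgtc
Rpl11, chr4:136053379-136053408, minus strand: ctgacccataaggccacggggccggaagtc
In the first 5 stretches the run begins between 5 bases and 1 base before the annotated start. Rpl35a has other annotated starts without such a run.

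The second sequence shown is the coding sequence of Rps27, which carries the results on near-identical copies. Rps27 (chr3:90212522-90213651 in GENCODE M21, minus strand, 4 coding exons) and Rps27rt (chr9:114982366-114982739, minus strand, 1 coding exon), a gene that GENCODE M21 lists as protein coding on GRCm38, have the same 252 coding bases without the stop codon, with 0 differences.
Rps27 and Rps27rt: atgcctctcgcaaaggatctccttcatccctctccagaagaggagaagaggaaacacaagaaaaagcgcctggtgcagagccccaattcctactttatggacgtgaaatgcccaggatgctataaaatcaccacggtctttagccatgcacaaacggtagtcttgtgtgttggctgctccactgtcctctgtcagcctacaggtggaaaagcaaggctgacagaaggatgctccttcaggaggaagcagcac
A read that lies within these bases matches both genes.

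The total count per mouse ran from 66653781 to 75637604 for the pre-treatment mice and from 48843585 to 77203445 for the delayed mice. Mitochondrial genes took 10.6 to 12.9% and 7.65 to 9.50% of the counts. Th, which encodes the enzyme that makes dopamine's precursor and marks dopaminergic neurons, was present in every mouse at 21.3 to 63.3 CPM (counts per 1000000, scaled with the TMM method). The summed level of 6 choroid plexus markers differed between mice of the same group, from 10.3 to 1648 CPM in the MPTP group of the pre-treatment experiment. In bulk tissue, fewer cells of a type and less RNA per cell cannot be told apart.

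The 76 genes together took 1.20 to 1.40% of each library among the pre-treatment mice and 1.14 to 1.32% among the delayed mice. All 76 passed the filter on low counts in both experiments, with a lowest single count of 30. On the FPKM scale, which divides by gene length, the mean over mice ran from 12.2 to 417 (median 71) in the pre-treatment experiment and from 11.9 to 413 (median 64.6) in the delayed experiment. Rplp1, an acidic protein of the ribosomal stalk, was the highest in both experiments, at 417 ± 38.9 FPKM (SD over 9 mice) and 413 ± 37.7 FPKM (SD over 12 mice). Rps15, a protein of the small subunit head, followed at 389 ± 27.2 and 404 ± 29.2 FPKM, within the spread of Rplp1. Next in order were Rpl23a at 246 ± 22.5 FPKM among the pre-treatment mice and Rpl19 at 262 ± 10.7 FPKM among the delayed mice, both proteins of the large subunit and both below the lowest mouse of Rplp1 and Rps15. The lowest were Rpl18 (12.2 ± 0.571 FPKM), Rps20 (14.4 ± 2.61) and Rpl34 (15.7 ± 1.59) in the pre-treatment experiment, and Rps20 (11.9 ± 1.53), Rpl18 (14.2 ± 1.19) and Rpl21 (14.9 ± 1.13) in the delayed experiment. Neighbours in this order overlapped between mice in each experiment, while the ranges of Rpl18 and Rpl34 in the pre-treatment experiment did not. These FPKM values rest on lengths that have a median of 2036 bases for the 76 genes, while the transcripts with the longest coding sequence have a median of 751 bases, so part of the order of levels depends on the length used.

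Rpsa and Rps6 are examples of members with little spread. The levels of Rpsa, the laminin receptor protein of the small subunit, were 436, 439 and 438 CPM in the control mice of the pre-treatment experiment, 423, 416 and 447 CPM in the MPTP mice and 417, 434 and 437 CPM in the mice given irisin before MPTP. Rps6, the target of S6 kinase, was at 392.5, 407 and 420.4 CPM in the control mice, 399, 391 and 422 CPM in the MPTP mice and 386, 410.2 and 408 CPM with irisin. Both genes overlapped between all 3 groups. Over all 76 members, the SD between mice of the same group had a median of 0.091 on the log2 scale among the pre-treatment mice and 0.107 among the delayed mice. Other genes with similar counts (64 to 275 CPM and 59.4 to 290 CPM, the range of most members) had a median of 0.0999 and 0.0929.

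In the comparison of MPTP with control mice of the pre-treatment experiment, most ribosomal protein RNAs were slightly lower with MPTP, and no single member passed the test. The log2 fold change was below 0 in 70 of the 76 members (92.1%), against 50.4% of all 22641 tested genes, with a median of −0.13 for the members and −0.0018 for all tested genes. The large and the small subunit had medians of −0.13 and −0.12. By the quasi-likelihood test of edgeR, with p adjusted over all tested genes after Benjamini and Hochberg, 0 of 76 members had an adjusted p under 0.05, against 5 of all tested genes (0.0221%), and the smallest adjusted p among the members was 0.803. At an unadjusted p under 0.05 there were 17 members (22.4%), all of them lower with MPTP, against 6.03% of all tested genes in either direction and 2.67% in the lower direction. With DESeq2, 0 of 75 members with a p were called, against 0.27% of all genes, and 12 had an unadjusted p under 0.05 (16%), against 4.99%.

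The summed share of counts on the members was 1.26, 1.25 and 1.40% of the counts in the 3 control mice, 1.23, 1.20 and 1.22% in the 3 MPTP mice and 1.21, 1.28 and 1.27% in the 3 mice given irisin before MPTP. The MPTP mice lay below all control mice, with means of 1.22 ± 0.0163% and 1.31 ± 0.0821% (SD, n = 3) and a ratio of 0.934. The exact permutation test (two-sided) gave 0.1, and with 3 against 3 mice it cannot give a smaller p. The members were chosen with earlier results of these data known, so no conclusion is drawn from this p. The mice given irisin before MPTP overlapped with the MPTP mice. All 3 MPTP mice lay below all 3 control mice in 30 members (39.5%), against 5.94% of all tested genes, and above them in 0 members, against 5.71%. Control replicate 3 was the highest of the 9 mice. Without it, the median of the members was −0.0836, 7 members had an unadjusted p under 0.05 and all MPTP mice lay below both other control mice in 30 members, against 9.65% of all tested genes. The share of all tested genes at an unadjusted p under 0.05 is not given for this fit, so the 7 members have no background beside them.

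**Figure D1:**
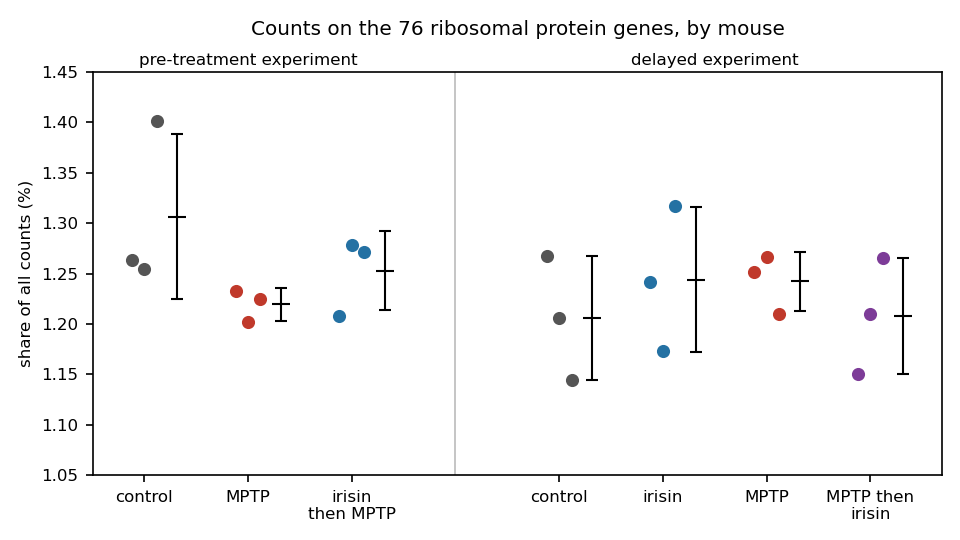
Share of all counts (%) that fell on the 76 ribosomal protein genes, on a vertical axis that does not start at 0. Each point is a mouse, and the black mark and bar beside each group are the mean and SD of its 3 mice. The 3 MPTP mice of the pre-treatment experiment (1.20 to 1.23%) lie below the 3 control mice (1.25 to 1.40%), and all groups of the delayed experiment overlap.

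The shift also moved with gene length. With the trend of fold change on gene length removed in each mouse, the median of the members was −0.0794 and 10 members had an unadjusted p under 0.05 (13.2%), against 5.27% of all tested genes. Of the 6 oligodendrocyte markers, 6 had a log2 fold change below 0 (median −0.18) and 0 passed the adjusted threshold, and their summed level was 8637 to 13167 CPM in the control mice and 7847 to 10306 CPM in the MPTP mice. The 6 choroid plexus markers had values above 0 (median 2.32), with 1648 CPM in MPTP replicate 2 and 10.3 and 23.9 CPM in the other two MPTP mice, while the control mice had 16.2 to 26.1 CPM. Of the 8 dopaminergic neuron markers, 5 were above 0 and 3 below (median 0.16), and 0 passed the adjusted threshold. Their summed level was 526 to 822 CPM in the control mice and 540 to 860 CPM in the MPTP mice. The part of these cell types in the shift was not tested.

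Among single members of this comparison, Rps10 showed the lowest fold change. Rps10, a protein of the small subunit near the mRNA entry, was at 77.9, 76.4 and 54.6 CPM in the control mice, 45.7, 44.5 and 43.5 CPM in the MPTP mice and 76, 62.2 and 46.5 CPM in the mice given irisin before MPTP. The MPTP mice were close together and below every mouse of the other groups, and the other groups each spread widely. The log2 fold change of MPTP against control was −0.64 (SE 0.186, unadjusted p = 0.00747, adjusted p = 0.803), and −0.37 with the counts of its near-identical copies in the genome added. In the 12 mice of the delayed experiment, Rps10 was at 41.6 to 52.2 CPM in all groups.

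Rpl21, a protein of the large subunit, was at 89.1, 78.7 and 99.2 CPM in the control mice, 77.7, 69.5 and 66.2 CPM in the MPTP mice and 82.2, 84.8 and 86.6 CPM with irisin before MPTP. The MPTP mice were the lowest, by a log2 fold change of −0.32 (SE 0.0955, unadjusted p = 0.00844, adjusted p = 0.815). Copies of Rpl21 held 82.9% of the summed level of the gene and its copies, and the fold change of that sum was −0.12. Rpl38, a small protein of the large subunit that is known for its role in the translation of Hox mRNAs, was at 137, 142 and 148 CPM in the control mice, 112, 129 and 116 CPM in the MPTP mice and 117, 125 and 132 CPM with irisin. It had the smallest unadjusted p of the members (0.00702, adjusted p = 0.803), at a log2 fold change of −0.26 (SE 0.074). Rpl38 was chosen for description after its values were seen.

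Among members with roles at the stalk or outside the ribosome, Rplp2, a stalk protein like Rplp1, was at 84.4, 84.1 and 88.5 CPM in the control mice and 75.9, 74.6 and 80.8 CPM in the MPTP mice, which did not overlap, with a log2 fold change of −0.15 (SE 0.0578, unadjusted p = 0.0282). Rplp0, the scaffold of the stalk that is often used as a reference gene, overlapped between the groups at 137, 148 and 146 CPM and 128, 142 and 137 CPM. Rpl5 and Rpl11 bind MDM2 and the 5S rRNA together. Rpl5 was at 253, 267 and 266 CPM in the control mice and 232, 226 and 250.4 CPM in the MPTP mice, with a log2 fold change of −0.15 (SE 0.0582), and Rpl11 overlapped at 147, 224 and 163 CPM and 194, 136 and 141 CPM. Rps3, which also takes part in DNA repair, had a log2 fold change of −0.12 (SE 0.0522), with 308, 327 and 337 CPM in the control mice and 301, 291 and 302 CPM in the MPTP mice. The X-linked Rps4x and Rpl10 had log2 fold changes of −0.09 (SE 0.0547) and −0.07 (SE 0.0592).

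**Figure D2:**
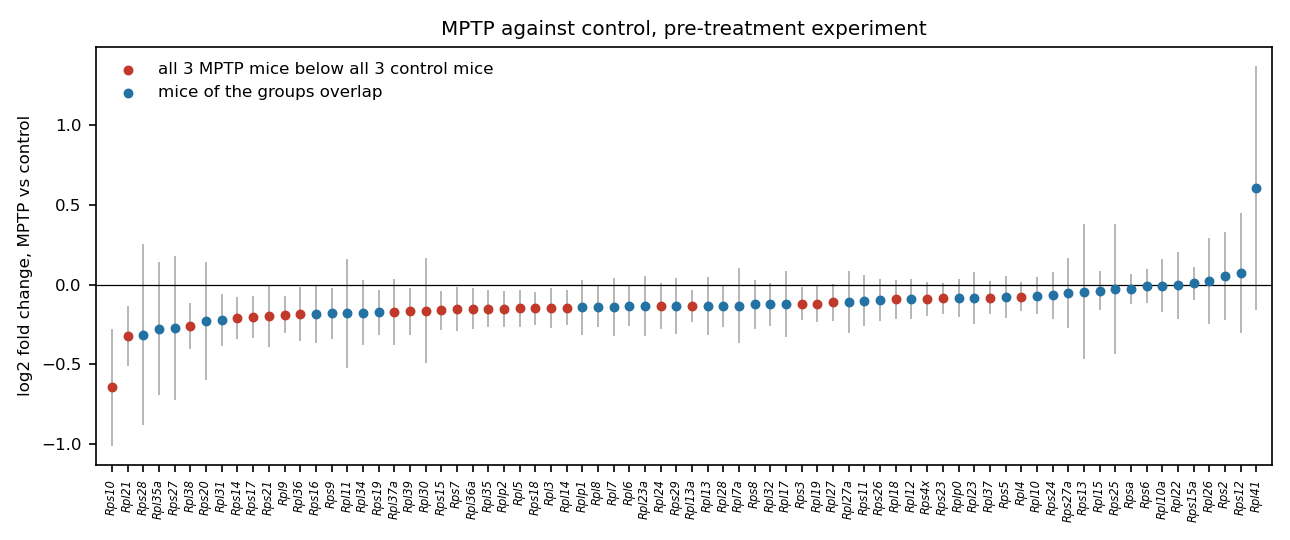
Log2 fold change (vertical axis) of MPTP against control mice of the pre-treatment experiment for the members in the order of their fold changes, with bars for the 95% interval from its standard error. Red points are the 30 members in which all 3 MPTP mice lay below all 3 control mice, and Rpl29 (log2 fold change 1.12, SE 1.8) is left out of the plot because its bar would hide the others, as is 1 member that is not reported here.

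Rack1 and Fau, outside the name rule, also had values below 0. Rack1, a scaffold on the small subunit, was at 130.4, 119.9 and 109 CPM in the control mice and 103, 106 and 104 CPM in the MPTP mice, with a log2 fold change of −0.2 (SE 0.0704, unadjusted p = 0.0203, adjusted p = 0.819). Fau, which encodes a ubiquitin-like protein fused to a ribosomal protein, had a log2 fold change of −0.21 (SE 0.0892, adjusted p = 0.823 by edgeR). Of 16 other genes known for TOP motifs, among them translation elongation factors, 11 were lower (median −0.05), and of 30 ribosome biogenesis genes 15 were lower (median 0.0014). Of 78 mitochondrial ribosomal proteins, 56 were lower (median −0.07). No gene of these lists passed the adjusted threshold in this comparison.

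In the comparison of irisin before MPTP with MPTP, 58 of the 76 members had a log2 fold change above 0, and no member passed the test. The log2 fold change was below 0 in 18 members (23.7%), against 49.3% of all tested genes, with a median of 0.04 for the members and 0.0031 for all tested genes. This comparison shares the MPTP mice with the one above, so the values of both are given side by side and are not independent. By edgeR's test with Benjamini-Hochberg adjustment, 0 of 76 members and 16 of all tested genes (0.0707%) had an adjusted p under 0.05. At an unadjusted p under 0.05 there were 5 members (6.58%), near the 6.22% of all tested genes. The 3 mice of the groups did not overlap in 11 members that were higher with irisin (14.5%), against 7.14% of all tested genes, and in 3 members that were lower (3.95%), against 7.08%. With DESeq2, 0 of 75 members were called, against 0.501% of all genes, and 4 had an unadjusted p under 0.05 (5.33%), against 5%. With the gene length trend removed, the median was 0.03, and 4 members had an unadjusted p under 0.05 (5.26%), against 6.4% of all tested genes. Markers of other cells moved in this comparison. Of the 5 blood markers, 5 had values below 0 with an unadjusted p under 0.05 (median −0.93), and their summed level was 231 to 455 CPM with irisin and 549 to 810.1 CPM with MPTP alone. All 8 dopaminergic neuron markers (median −0.43) and all 6 choroid plexus markers (median −2.42) also had values below 0, at 538 to 630.4 CPM against 540.4 to 860.5 CPM and 12.1 to 26.9 CPM against 10.3 to 1648 CPM, and no marker of the 3 lists passed the adjusted threshold. The part of these cells in the members' values was not tested.

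The members with the highest fold changes were Rps10 (0.47, SE 0.186), Rpl11 (0.33, SE 0.174) and Rps28 (0.31, SE 0.289). The Rps10 values given above show that 1 mouse with irisin, at 46.5 CPM, was close to the MPTP mice. Rpl11 was at 199, 198 and 198 CPM with irisin, within the range of the control mice, and one MPTP mouse at 194 CPM came close to it. Rpl21 was higher by 0.25 (SE 0.0955, unadjusted p = 0.0292). Rpl22, whose loss is known to impair T cell development, was lower at 89.7, 84.4 and 82.1 CPM with irisin, against 99, 109.7 and 98.9 CPM with MPTP alone, a log2 fold change of −0.26 (SE 0.106, unadjusted p = 0.0358, adjusted p = 0.756). Its levels in the control mice were 85.6, 110.3 and 113 CPM, a range that held the MPTP mice and 1 of the mice given irisin. Rps12 was at 48.7, 47 and 37.8 CPM with irisin and 49.3, 51.9 and 54.9 CPM with MPTP alone (log2 fold change −0.23, SE 0.191).

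**Figure D3:**
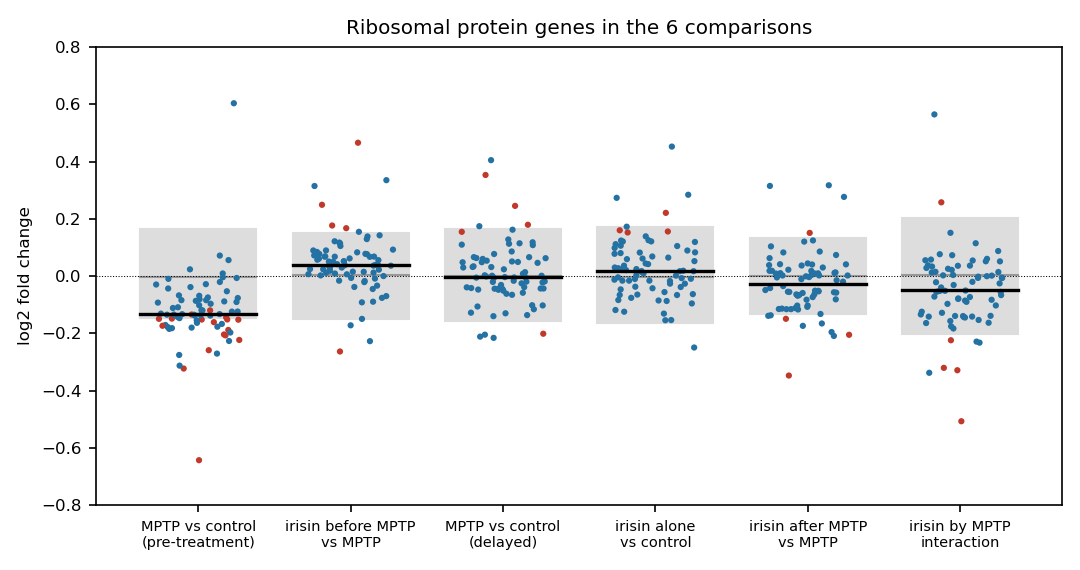
Log2 fold change (vertical axis) of the members in each of the 6 comparisons. Each point is a member, red at an unadjusted p under 0.05 and blue otherwise, with the median of the members as a black line and the quartiles and median of all tested genes as a grey box and line. Rpl29 lies outside the axis in 5 of the 6 comparisons, with values from −5.16 to 4.33. The members are shifted below 0 in the first comparison (median −0.13) and lie around 0 in the delayed experiment. The gene length trend was not removed for this plot.

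In the delayed experiment, the members lay around 0 between MPTP and control mice, and mostly above 0 once the gene length trend was removed. The log2 fold change was below 0 in 40 members (52.6%), against 50.3% of all 21922 tested genes, and the median was −0.0036 for the members and −0.0013 for all tested genes. The share of counts was 1.27, 1.21 and 1.14% in the control mice, 1.24, 1.17 and 1.32% with irisin alone, 1.25, 1.27 and 1.21% with MPTP and 1.15, 1.21 and 1.27% with MPTP followed by irisin. All groups overlapped, and each pair compared had a ratio of 0.973 to 1.03, with exact permutation p-values (two-sided) of 0.4 to 0.5. As with the share in the pre-treatment experiment, no conclusion is drawn from these p-values, given how the members were chosen. The difference between the experiments was not tested, since they were not fitted together. By edgeR's test with Benjamini-Hochberg adjustment, 0 of 76 members were called, against 29 of all tested genes (0.132%), and 5 members had an unadjusted p under 0.05 (6.58%), against 8.33%. The mice did not overlap in 6 higher members (7.89%) and 2 lower members (2.63%), against 8.23% and 7.94% of all tested genes. With DESeq2, 0 members were called, against 0.532% of all genes, and 5 had an unadjusted p under 0.05 (6.58%), against 6.21%. Mitochondrial genes took 7.65 to 7.80% of the counts with MPTP and 8.48 to 9.50% in control mice, and of the 8 dopaminergic neuron markers 8 had values below 0 (median −0.49) with 0 called, at a summed level of 462 to 587 CPM with MPTP and 676 to 713 CPM in control mice. The part of both in these values was not tested. Of 78 mitochondrial ribosomal proteins, 58 were below 0 (median −0.09) and 0 were called. With the gene length trend removed, 16 members were below 0 in place of 40, with a median of 0.065, and 12 members had an unadjusted p under 0.05 (15.8%), 11 of them higher with MPTP, against 7.98% of all tested genes.

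Rpl3, a protein close to the peptidyl transferase center, had the smallest p of this comparison. It was at 462, 437 and 412 CPM in the control mice, 479, 442 and 508 CPM with irisin alone, 539, 539.5 and 476 CPM with MPTP and 437, 444 and 468 CPM with MPTP followed by irisin. The MPTP mice lay above the control mice and above the mice given irisin after MPTP. The log2 fold change of MPTP against control was 0.25 (SE 0.0689, unadjusted p = 0.00453, adjusted p = 0.37 by edgeR). In the pre-treatment experiment, Rpl3 was at 459.6, 454 and 531 CPM in control mice and 441, 432 and 430.3 CPM in MPTP mice, which lay below them. Rpl11 was higher with MPTP at 195, 195 and 182 CPM, against 160.1, 148 and 139.9 CPM in the control mice (log2 fold change 0.35, SE 0.131, unadjusted p = 0.0206, adjusted p = 0.489). Rpl11 was also at 192 to 200.1 CPM with MPTP followed by irisin, while irisin alone gave 204, 134 and 203 CPM. Its levels lay apart within 2 groups of the pre-treatment experiment, at 147, 224 and 163 CPM in control mice and 194, 136 and 141 CPM in MPTP mice. With irisin before MPTP they were close together, at 199, 198 and 198 CPM. Rpl35a was lower with MPTP at 81.5, 87.1 and 82.7 CPM, against 97.2, 102 and 90.3 CPM in the control mice (log2 fold change −0.2, SE 0.0721). Among the lowest fold changes, those of Rpl17 (−0.21, SE 0.202) and Rps2 (−0.2, SE 0.137) lay between mice that overlapped.

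Between irisin alone and control mice, the position of the members depended on whether the trend with gene length was removed. There were 32 members below 0 (42.1%), against 50.5% of all tested genes, and the median was 0.02 (−0.0023 for all tested genes). With the gene length trend removed, 15 members were below 0, the median was 0.0632, and 16 members had an unadjusted p under 0.05 (21.1%), 15 of them higher with irisin, against 8.81% of all tested genes. By edgeR's test with Benjamini-Hochberg adjustment, 0 of 76 members and 24 of all tested genes (0.109%) were called, and 5 members had an unadjusted p under 0.05 (6.58%), against 8.97%. The mice did not overlap in 4 higher members (5.26%) and 1 lower member (1.32%), against 7.42% and 7.68% of all tested genes. DESeq2 called 1 member, Rpl29, against 0.431% of all genes, and 6 had an unadjusted p under 0.05 (7.89%), against 6.62%. Rps4x was higher at 283, 262 and 291 CPM, against 252, 256 and 241 CPM in the control mice (log2 fold change 0.16, SE 0.0544, unadjusted p = 0.0156, adjusted p = 0.492 by edgeR). The highest fold changes, of Rps27 (0.45, SE 0.302), Rpl41 (0.28, SE 0.268) and Rpl11 (0.27, SE 0.131), lay between mice that overlapped. Without replicate 2 of the group given irisin alone, edgeR called Rpl11, whose other two mice in this group were at 204 and 203 CPM. Of 16 other genes with TOP motifs, 14 were higher (median 0.1), 6 of them with an unadjusted p under 0.05 and 0 with an adjusted p under 0.05. Choroid plexus markers were lower with irisin alone in 6 of 6 (median −2.26), with a summed level of 57.8 to 289 CPM against 242 to 1487 CPM in the control mice, and their part in these values was not tested.

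In the comparison of irisin after MPTP with MPTP alone, the members lay around 0. There were 44 members below 0 (57.9%), against 50.1% of all tested genes, with a median of −0.03 (−0.00016 for all tested genes). By edgeR's test with Benjamini-Hochberg adjustment, 0 of 76 members were called, and of all tested genes 1 was called (0.00456%), Larp1. At an unadjusted p under 0.05 there were 4 members (5.26%), against 3.9% of all tested genes. The mice did not overlap in 2 higher members (2.63%) and 8 lower members (10.5%), against 5.35% and 5.38% of all tested genes. DESeq2 called 1 member, Rps14, against 0.102% of all genes, and 4 had an unadjusted p under 0.05 (5.26%), against 3.24%. With the gene length trend removed, the median was −0.03, and 5 members had an unadjusted p under 0.05 (6.58%), against 4.11% of all tested genes.

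Rps14, a small subunit protein whose loss is known from a form of myelodysplastic syndrome, had the smallest p of any member in any comparison. Its levels in the delayed experiment were 161, 178 and 157 CPM in the control mice, 189, 169 and 196 CPM with irisin alone, 183, 181 and 178 CPM with MPTP and 139, 139 and 147 CPM with MPTP followed by irisin. The last group lay below all 9 other mice. The log2 fold change of irisin after MPTP against MPTP was −0.35 (SE 0.0662, unadjusted p = 0.000274, adjusted p = 0.843 by edgeR and 0.0173 by DESeq2). In the pre-treatment experiment, Rps14 was at 227, 221 and 206 CPM in control mice, 184, 203 and 180.1 CPM in MPTP mice and 203, 217 and 217 CPM with irisin before MPTP. Rpl3, with the values given above, was lower with irisin after MPTP by a log2 fold change of −0.21 (SE 0.0689, unadjusted p = 0.0126). Stalk proteins moved in different directions, with Rplp2 at 99.9, 107 and 111 CPM against 95.5, 92.8 and 98 CPM (log2 fold change 0.15, SE 0.0586) and Rplp0 at 194, 202 and 195 CPM against 215, 217 and 223 CPM (−0.15, SE 0.063), and neither passed the adjusted threshold. The highest fold changes, of Rpl41 (0.32, SE 0.267), Rpl17 (0.31, SE 0.202) and Rps27 (0.28, SE 0.302), lay between mice that overlapped.

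The irisin by MPTP interaction asks whether the effect of irisin differed between mice with and without MPTP. By edgeR's test with Benjamini-Hochberg adjustment, 0 of 76 members and 9 of all tested genes (0.0411%) were called. There were 6 members with an unadjusted p under 0.05 (7.89%), against 5.57%, and 49 members below 0 (64.5%), against 49.5% of all tested genes, with a median of −0.05. With the gene length trend removed, 63 members were below 0, the median was −0.09, and 13 members had an unadjusted p under 0.05 (17.1%), 11 of them below 0, against 5.56% of all tested genes. Rps14 had an interaction of −0.51 on the log2 scale (SE 0.0935, unadjusted p = 0.000211, adjusted p = 0.171 by edgeR and 0.00406 by DESeq2). Rpl3 had −0.33 (SE 0.0974, unadjusted p = 0.00619, adjusted p = 0.81), and DESeq2 called 1 member, Rps14, against 0.185% of all genes, with 6 members at an unadjusted p under 0.05 (7.89%), against 4.26%.

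Some members did not overlap between groups in either experiment and had opposite directions in them. For MPTP against control these were 3 of 76 members (3.95%), against 0.596% of the 21153 genes tested in both experiments, and for irisin with MPTP against MPTP alone 2 members (2.63%), against 0.771%. Members already differed from all genes in single comparisons, with 39.5% lower without overlap for MPTP in the pre-treatment experiment, against 5.94%. Such shares alone raise the number of opposite pairs, so 0.596% and 0.771% are not a like background. The MPTP mice are shared by both, and the difference between the experiments was not tested.

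Larp1 encodes the protein that binds TOP mRNAs, and its levels stand beside those of the members. In the delayed experiment Larp1 was at 155, 153 and 163 CPM in the control mice, 163, 176 and 152 CPM with irisin alone, 69.5, 76.1 and 77.6 CPM with MPTP and 172, 167 and 154 CPM with MPTP followed by irisin. The MPTP mice were on a separate lower level, by a log2 fold change of −1.08 against control (SE 0.0699, adjusted p = 6.56e-05 by edgeR). The share of counts on ribosomal proteins in these mice was 1.21 to 1.27%, which overlapped with every other group. A link between Larp1 and the levels of these RNAs was not tested. In the pre-treatment experiment, Larp1 was at 45.4 to 72.7 CPM in 7 mice and at 162 and 154 CPM in MPTP replicate 2 and replicate 3 of the group given irisin before MPTP, where the share was 1.20 and 1.27%. Both levels of Larp1 thus occurred among mice of the same group there. Of the 17 genes in the list of mTORC1 and TOP mRNA regulators, Larp1 was the one with an adjusted p under 0.05, in 3 of the 6 comparisons.

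Rpl29 (chr9:106429454-106431568, plus strand), a large subunit protein that also binds heparin, lay on 2 separate levels. In 9 of the 21 mice it was at 0.447 to 1.28 CPM (30 to 73 counts), and in the other 12 at 30.2 to 52 CPM (1767 to 3516 counts), with no mouse in between. The low level was present in 2 control mice and 2 mice given irisin before MPTP of the pre-treatment experiment, and in 1 control mouse, all 3 mice given irisin alone and 1 mouse given irisin after MPTP of the delayed experiment. All 6 MPTP mice of both experiments were on the high level. Since the levels split the mice within 4 groups, the fold changes had large errors, such as −5.16 (SE 1.43, unadjusted p = 0.00419, adjusted p = 0.395 by edgeR and 0.0142 by DESeq2) for irisin alone against control, where 1 control mouse at 0.725 CPM lay among the mice given irisin.

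**Figure D4:**
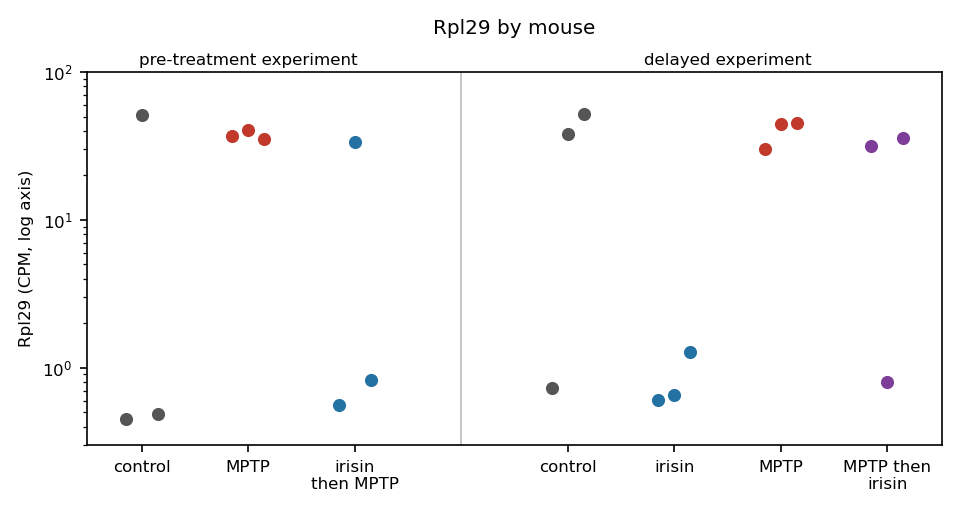
Level of Rpl29 (CPM, vertical log axis) in each mouse, with a point for each of the 3 mice of a group. The mice lie on 2 levels, 0.447 to 1.28 CPM and 30.2 to 52 CPM, and both levels occur within 4 of the 7 groups.

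Copies of the members in the genome were found for most of them. At an identity of at least 95% over at least 80% of the coding sequence, 71 of the 76 members had copies in the table of the delayed experiment, with a median of 6 per member and 57 for Rpl21, and 517 of the 548 copies are processed pseudogenes. The counts on copies amounted to 22.9% of the counts on the members among the pre-treatment mice and 20.9% among the delayed mice. For Rpl21, its copies together held 383 to 425 CPM in the pre-treatment experiment, above the 66.2 to 99.2 CPM of Rpl21 itself. A count on one of these genes may include reads from another, since how reads with several matches were counted is not given in the sources used here.

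Rps27, a zinc finger protein of the small subunit, and Rps27rt, whose coding bases are the same, moved against each other between mice. In the pre-treatment experiment, Rps27 was at 98.2, 144 and 176 CPM in the control mice, 87.9, 146 and 113 CPM in the MPTP mice and 141, 119 and 119.6 CPM with irisin before MPTP. Rps27rt in the same order was at 63.6, 18.2 and 12.6 CPM, 66.3, 4.97 and 39.3 CPM and 8.74, 47.4 and 44.6 CPM. The mice with the least Rps27 had the most Rps27rt, and the sum of Rps27 and its copies ran from 152 to 193 CPM. The SD between mice of the same group fell by summing from 0.336 to 0.0895 on the log2 scale in the pre-treatment experiment and from 0.439 to 0.102 in the delayed experiment. The same was seen for Rps13 in the pre-treatment experiment, where control replicate 1 and MPTP replicate 1 had 52.8 and 55 CPM on Rps13 and 58.6 and 54.6 CPM on its copies, while the other 7 mice had 69.4 to 95.8 CPM and 20.4 to 28.2 CPM. Summing reduced the SD of Rps13 from 0.316 to 0.0958, and in the delayed experiment it made no difference (0.134 and 0.135). Rps27a, which encodes ubiquitin fused to a ribosomal protein, went from 0.147 to 0.0802 and from 0.254 to 0.11, and Rps28 from 0.431 to 0.189 and from 0.129 to 0.098. Rps27rt and Rps13 were chosen for description after their values were seen.

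**Figure D5:**
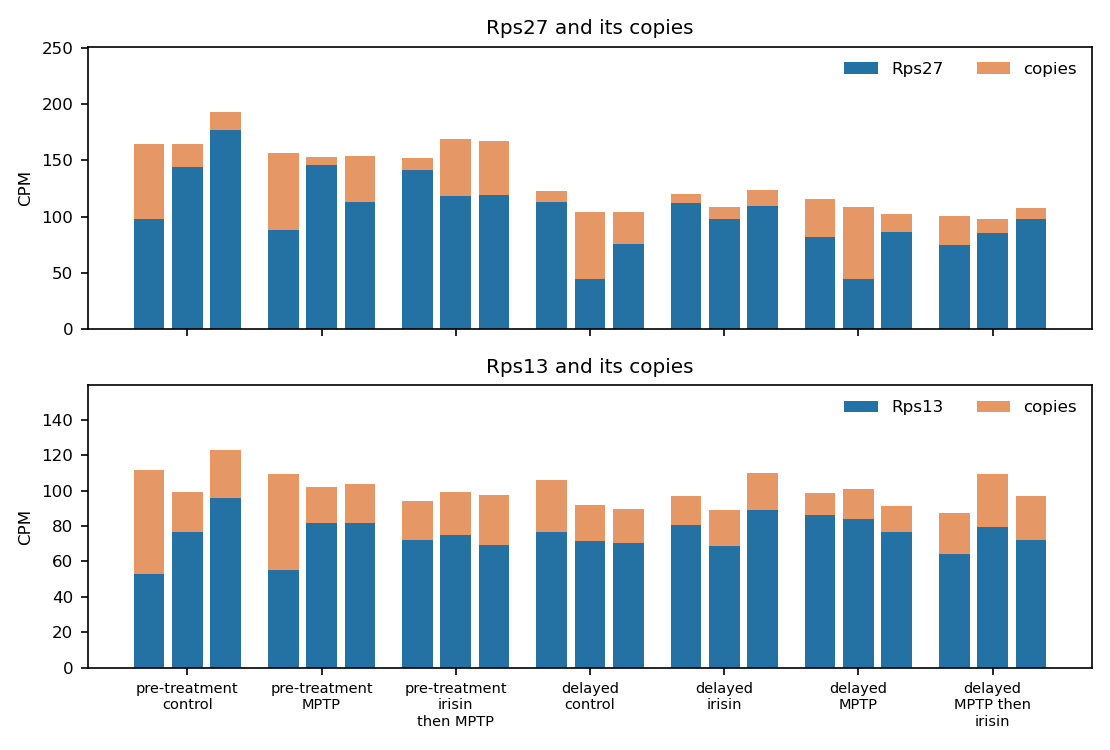
Levels (CPM, vertical axes from 0) of Rps27 (above) and Rps13 (below) in each of the 21 mice, with the member in blue and the sum of its near-identical copies stacked on it in orange. The height of the stack varies less than the blue part for Rps27, whose stack runs from 152 to 193 CPM among the pre-treatment mice and 97.8 to 124 CPM among the delayed mice. For Rps13 this holds among the pre-treatment mice and not among the delayed mice.

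The SD was lower after summing in 51 of 70 members with copies in the pre-treatment experiment and in 46 of 71 in the delayed experiment, and the number of members with an SD over 0.2 went from 13 to 6 and from 10 to 4. Adding copy counts that vary little lowers an SD on the log2 scale even where no reads are shared. Rpl29 went from 2.93 to 0.609 in the pre-treatment experiment, with copies at 24.6 to 32.6 CPM. The part of shared reads in these lower SDs was not tested. With each member summed with its copies, MPTP against control in the pre-treatment experiment had a median of −0.134, against −0.0067 for all tested genes. There were 72 members below 0 and 22 at an unadjusted p under 0.05 by edgeR. That threshold was met by 1370 of the 22248 genes tested in this fit, in either direction. By edgeR, 0 members were called in any comparison. Single members changed more. Rps10, whose copies were at 37.5 to 49.0 CPM, had a log2 fold change of −0.37 as a sum in place of −0.64, and Rpl21 had −0.12 in place of −0.32. Rpl29, whose copies were at 18.3 to 32.6 CPM in all mice, kept its 2 levels in the sum with its copies, at 21.1 to 33.1 CPM and 52.1 to 80.3 CPM. That sum had a log2 fold change of −1.14 for irisin alone against control. Rpl41, the smallest ribosomal protein, also varied within groups. It was at 156, 143 and 123 CPM in the control mice, 256, 116 and 269 CPM in the MPTP mice and 259, 108 and 285 CPM with irisin before MPTP. Its log2 fold change of 0.6 between MPTP and control had an SE of 0.389. The search found no copies of Rpl41 with a coding sequence of 138 bases, and matches to a shorter part of it were not counted. The part of shared reads in the spread of Rpl41 was therefore not tested.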

How the data were processed

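RNA-seq was done on 21 mouse midbrain samples in 2 experiments of 9 and 12 mice. The authors deposited 1 table per experiment with raw gene counts and FPKM values per mouse. The methods name featureCounts, and the submitters' processing notes name HISAT, StringTie, edgeR and mm9. The deposited coordinates match GRCm38, with the same start and end as GENCODE M21 for 92.0% and 94.3% of genes. Aligner settings, strand and the counting of reads with several matches are not given in the sources used here.

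Counts were tested with edgeR 4.0.16 in R 4.3.3 (filterByExpr with a minimum count of 10 and a minimum total of 15, TMM scaling, quasi-likelihood F-test, Benjamini-Hochberg adjustment over all tested genes, threshold 0.05), with all groups of an experiment in 1 fit and the experiments kept apart. Fold changes are log2, and a standard error is the fold change divided by the root of F. FPKM served to order levels between genes, and limma 3.58.1 on log2 of FPKM with pseudocounts of 1 and 0.1 was an alternative, as was DESeq2 1.42.0. Shares of counts were compared with exact permutation tests (scipy 1.17.1). Copies were found with BLAST 2.17.0 against GENCODE M21 transcripts at 95% identity over 80% of the coding sequence. The methods were tested on simulated data. For MPTP against control of the pre-treatment experiment, 48 of 100 genes with a log2 change of 1 and 84 of 100 with a change of 2 were recovered, among 21908 genes with 4 false calls. For the delayed experiment 61 and 93 of 100 were recovered, among 21227 genes with 5 false calls. Log2 changes below 1, such as those of most members, were not simulated, so recovery at their size is not known.

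The members and gene lists were chosen with earlier results of these data known. Members named in the text are those called, the 3 highest and 3 lowest fold changes of each comparison, 13 genes fixed by role and the 3 highest and 3 lowest FPKM means, and others are said to be chosen after their values were seen. The labels name separate mice, and p-values measure the spread between them. Alternatives were other tools and scaling, low-count filters, fits with only the compared groups, a replicate block, removal of the gene length trend and leaving out each mouse. Summing members with copies was added after seeing the data. Single values of some genes that the rule names are not reported here.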

Additional observations from a re-analysis of the deposited data

Results flagged for a closer look

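In 4 members, all 3 treated mice lay on opposite sides of their comparison mice in the pre-treatment and the delayed experiment. These were 3 of 76 members for MPTP against control (3.95%), against 0.596% of all genes tested in both experiments, and 2 for irisin with MPTP against MPTP alone (2.63%), against 0.771%. In the pre-treatment experiment, 39.5% of members were lower with MPTP without overlap, against 5.94% of all genes. With irisin before MPTP 14.5% were higher, against 7.14%, and with irisin after MPTP 10.5% were lower, against 5.38%. These shares alone raise the number of opposite pairs, so 0.596% and 0.771% are not a like background. The difference between the experiments was not tested, since they were not fitted together. For MPTP against control, the log2 fold changes in the pre-treatment and the delayed experiment were −0.135 and 0.0769 for Rpl24, −0.147 and 0.245 for Rpl3, and −0.0888 and 0.113 for Rps4x. For irisin with MPTP against MPTP alone, they were 0.084 (irisin before MPTP) and −0.205 (irisin after MPTP) for Rpl3, and −0.228 and 0.0824 for Rps12. The values of Rpl3 in both pairs share the MPTP mice. Rpl24 was chosen for this pattern after its values were seen.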

How the results depend on the processing

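For MPTP against control in the pre-treatment experiment, removing the gene length trend gave a median log2 fold change of −0.0794 in place of −0.13. The 17 members with an unadjusted p under 0.05 became 10 with the length trend removed, 6 with the length trend removed and a replicate block, 9 with only the compared groups, and between 7 (without control replicate 3) and 27 (without control replicate 2) when 1 mouse was left out. Of all tested genes, 6.03% had such a p without these changes and 5.27% with the length trend removed. Shares for the other settings are not given, so their counts have no background beside them. The replicate numbers did not pair the mice (correlation of deviations −0.103 to 0.16 over 9 pairs and −0.0838 to 0.0433 over 18 pairs), and with the replicate block 0 members were called in each of the 6 comparisons, with a median of −0.133 in the first. With an unadjusted p in place of the adjusted p, the 6 comparisons in the order of the text had 17, 5, 5, 5, 4 and 6 members under 0.05. DESeq2 called 1 member each for irisin alone (Rpl29, −5.16), irisin after MPTP (Rps14, −0.349) and the interaction (Rps14, −0.517), where edgeR called 0, and the cause was not tested. Leaving out 1 mouse gave 0 to 1 called members for irisin alone. Medians with 1 mouse left out ran from −0.159 to −0.0836 for MPTP and 0.0228 to 0.0653 for irisin before MPTP, and in the delayed experiment from −0.0374 to 0.0342 for MPTP, −0.0347 to 0.0626 for irisin alone, −0.059 to 0.0118 for irisin after MPTP and −0.106 to 0.00447 for the interaction, so their sign depended on single mice there. The SD between mice of the same group of the members' median level was 0.052 on the log2 scale in the pre-treatment and 0.0692 in the delayed experiment. Removing the gene length trend moved the median from −0.0036 to 0.065 (MPTP, delayed), 0.02 to 0.0632 (irisin alone) and −0.05 to −0.0892 (interaction).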
